A study of Homo sapiens with 4 samples.

Results

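The genes described here are 57 genes of mitosis, sister chromatid cohesion and the cell cycle, taken from a fixed list of names: mitotic kinases, the spindle checkpoint, the anaphase-promoting complex, separase and securin, cohesin, condensin, kinetochore and chromosomal passenger genes, cyclins, cyclin-dependent kinases and their phosphatases. All 57 had at least 1 listed m6A site in at least 1 library, and 50 had sites that could be tested, which gave 287 of the 78509 tested sites and 50 of the 10782 tested genes of the series. HEK293T, a transformed human embryonic kidney cell line of wild-type genotype per the labels, was seeded for 24 h and then given ascorbic acid for 36 h, with the medium changed every 6 h. The 2 ascorbic acid libraries were set against the 2 libraries titled as controls. Neither the dose of ascorbic acid nor the handling of the control medium is given by the labels, and nothing in the labels says whether replicates came from separate cultures, so p-values measure only the spread between these libraries.

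N6-methyladenosine (m6A) is written on messenger RNA by the METTL3 and METTL14 methyltransferase and removed by FTO and ALKBH5, dioxygenases that need ferrous iron. Ascorbic acid can reduce ferric to ferrous iron, and the title of the series places the comparison in that setting. The assay, GLORI, deaminates unmethylated adenosine, which then appears as G in the reads, and leaves m6A to appear as A. A site's level is therefore A reads over A plus G reads, in percent. Passage through mitosis depends on timed phosphorylation by the cyclin-dependent, Polo and Aurora kinases, on a checkpoint that holds the anaphase-promoting complex inactive until kinetochores are attached, and on separase, which cuts cohesin once its inhibitor securin is degraded. Many of these mRNAs vary in amount over the cell cycle, and the cells here were not stated to be synchronised.

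Testing took the sites found in every one of the 4 lists at a depth of 20 A plus G reads or more per library. The libraries held 132989 to 144171 listed sites and 22592887 to 28562744 A plus G reads. Median depth at the tested sites of the 50 genes was 138 and 133 reads without ascorbic acid and 151 and 167 reads with it. The deposited rate of unconverted A, as a median over the genes of the list, was 3.45% in control replicate 2 and 2.08% to 2.52% in the other 3 libraries. Of 6 marker genes known in HEK293T, NEFL, NEFM and XRCC6 were listed in all 4 libraries, ENO2 in both ascorbic acid libraries, and PAX2 and LHX1 in none. Of 10 markers of other cell types, 9 were listed in none, and COL1A1 was listed in 3 libraries, at a deposited coverage of 29.6 to 36.5. A gene without a listed site may still be expressed.

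The genes of the list carried less m6A with ascorbic acid, and 94 of the 95 sites called changed in that direction. Median site level in the control pair was 34.9% and 37.0% (36.0 ± 1.50, SD, n = 2), and in the ascorbic acid pair 28.2% and 29.0% (28.6 ± 0.603, n = 2), so that the groups did not overlap. Of the 287 sites, 94 fell, 1 rose and 192 did not pass the test (edgeR quasi-likelihood test, Benjamini-Hochberg adjusted over all sites, threshold 0.05). The 32.8% that fell stands beside a background of 25.7% over all sites of the series, and the background for a rise was 0.219%. The sites here were read more deeply than those of the series, and the effect of depth on these shares was not tested. The groups were separated downwards, with no overlap, at 176 sites (61.3%, background 55.4%) and upwards at 7 (2.44%, background 4.22%). The median change was -5.89 percentage points, against -4.89 points over all sites. At 31 sites in 18 genes the fall exceeded 20 points, which is 10.8% of the sites here and 8.07% of all sites. DESeq2 on the same reads called 60 of these sites (20.9%) as lower in place of 94. Over all sites of the series it called 9991 as lower in place of 20141.

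With the A and G reads of each gene summed over its tested sites, 32 of the 50 genes fell and 0 rose, by the same edgeR test adjusted over all genes. That is 64.0%, beside a background of 56.7% for a fall and 0.297% for a rise. At the looser measure of an unadjusted difference in mean, 46 of 50 genes (92.0%, beside 92.2% of all genes) were lower and AURKB, STAG2, NCAPH and CDC25C were higher. Groups that did not overlap were lower with ascorbic acid for 41 genes (82.0%, background 76.7%) and higher for 0 (background 1.75%). The median change in log2 odds of A was -0.50, against -0.39 over all genes. Sites of 1 transcript share its RNA molecules and some reads, so they are not replicates. MKI67 alone held 34 of the sites, and the 5 genes with the most sites held 105 of 287. Among the 30 genes with at least 3 tested sites, 20 fell, or 66.7% beside 68.2% of 7236 such genes in the series; among the 20 with 1 or 2 sites, 12 fell, or 60% beside 33.2% of 3546 such genes. Without control replicate 2, the library with the highest unconverted rate, the median log2 odds change over all genes was -0.36. That median was -0.44 without control replicate 1 and -0.40 without either ascorbic acid library. Fewer sites passed as lower whichever library was left out, both on the list and over the series.

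**Figure D1:**
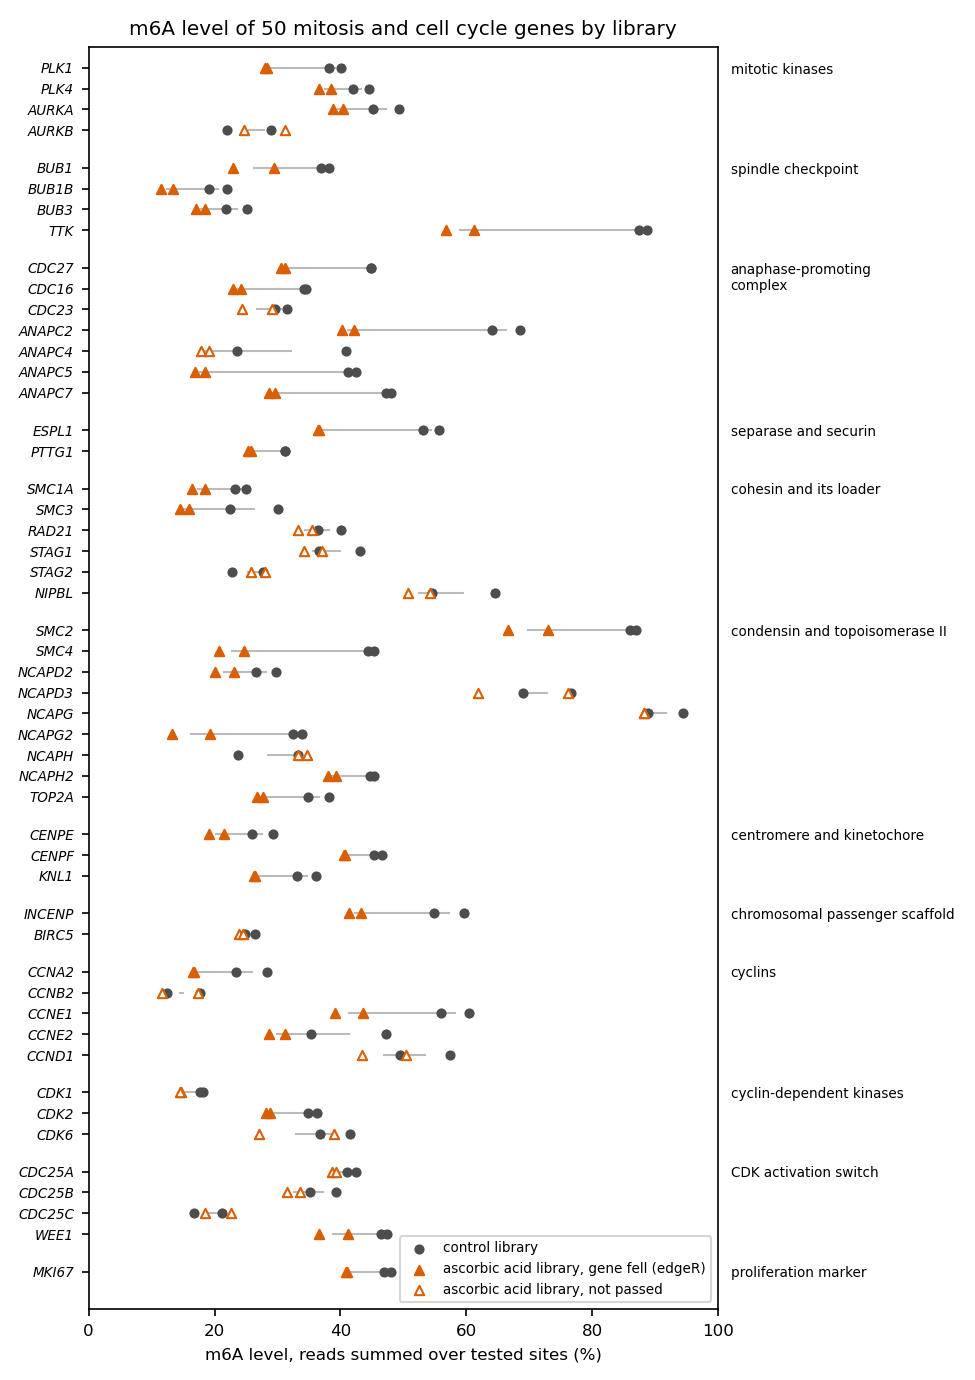
m6A level (percent, A and G reads summed over tested sites) of 50 genes, grouped by role, with 1 circle for each of the 2 control libraries and 1 triangle for each of the 2 ascorbic acid libraries; filled triangles mark the 32 genes that fell by edgeR, and grey lines join the group means. TTK, ANAPC2, ANAPC5, ESPL1 and SMC4 show wide gaps between the groups, while AURKB, STAG2 and BIRC5 overlap or nearly touch.

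Among the mitotic kinases, 3 of 4 fell. PLK1, the Polo kinase of mitotic entry, centrosome maturation and cytokinesis, fell at its site chr16:23690083, at 51.1% and 52.0% in the controls and 37.0% and 36.8% with ascorbic acid, read 3589 to 4477 times in each library. The groups stood far apart at this site (-14.6 points, edgeR adjusted p = 3.59e-11). AURKA, which builds the spindle poles, went from 45.1% and 49.3% to 38.9% and 40.4% over 4 sites. PLK4, which licenses centriole duplication, went from 42.0% and 44.5% to 38.5% and 36.6% over 13 sites. The calls of both were less secure: AURKA lost its call without ascorbic acid replicate 1, and PLK4 lost it without ascorbic acid replicate 2 (log2 odds changes of -0.38 and -0.28), and DESeq2 called neither (adjusted p = 0.0725 and 0.0770). At a minimum of 50 reads PLK4 did not pass either (adjusted p = 0.0528). AURKB, the kinase of the chromosomal passenger complex, read 22.0% and 29.0% in the controls and 31.2% and 24.6% with ascorbic acid, so the groups overlapped, and it did not pass (adjusted p = 0.526).

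All 4 measured spindle checkpoint genes fell. TTK, the kinase that starts checkpoint signalling at unattached kinetochores, showed the largest change in odds of any gene on the list. Its single tested site, chr6:80042249, is 278 nt upstream of the annotated gene end and read 88.8% and 87.4% in the controls and 56.8% and 61.2% with ascorbic acid, at 107 to 165 reads (log2 odds -2.33 ± 0.31 SE, adjusted p = 2.07e-06). BUB1B, which as BUBR1 is part of the inhibitor of the anaphase-promoting complex, was at 19.1% and 22.0% and then at 11.5% and 13.4%. Its deeper site lies where the RefSeq gene BUB1B-PAK6 overlaps on the same strand, so reads of the pair cannot be told apart there. BUB1, which recruits the checkpoint proteins to kinetochores, was at 36.9% and 38.2% and then at 23.0% and 29.5%. BUB3, their shared binding partner, was at 21.9% and 25.1% and then at 18.6% and 17.1%. MAD2L1 had no site that could be tested.

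The anaphase-promoting complex, the ubiquitin ligase that marks securin and cyclin B for destruction, had 7 measured subunit genes. Of these 5 fell, and of their 40 sites 24 fell. ANAPC5, a scaffold subunit, went from 41.2% and 42.6% to 18.4% and 16.9% over 2 sites at 4289 to 5295 summed reads (log2 odds -1.75 ± 0.08 SE, adjusted p = 5.80e-13). ANAPC2, the cullin subunit, went from 64.2% and 68.6% to 40.2% and 42.2%, and all 7 of its sites fell (log2 odds -1.50 ± 0.10, adjusted p = 7.08e-11). ANAPC7, one of the subunits built of TPR repeats, went from 47.3% and 48.0% to 29.6% and 28.7%, with 7 of 14 sites called. CDC27, the TPR subunit that binds the activators, went from 44.9% in both controls to 30.6% and 31.2%, with 5 of 8 sites called. CDC16, a further TPR subunit, went from 34.2% and 34.5% to 23.0% and 24.1%. In each of these 5 genes the 2 groups were separated by more than the spread within either group.

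CDC23 and ANAPC4 did not pass. CDC23 was at 29.6% and 31.5% in the controls and 24.3% and 29.2% with ascorbic acid (adjusted p = 0.0754), and it passed without control replicate 1 or without ascorbic acid replicate 2 (log2 odds -0.32 and -0.45). ANAPC4 had 1 site of 42 to 51 reads, at 40.9% and 23.5% and then 17.8% and 19.0%, so the controls themselves lay further apart than the groups at their nearest; it passed without control replicate 2 (log2 odds -1.60). ANAPC1, the largest subunit, had no tested site. Neither had CDC20, the mitotic activator of the complex, which had 1 and 3 listed sites in the control libraries and 0 in either ascorbic acid library; 1 of these, chr1:43359982, was listed in both controls, at 10.1% and 14.8%. The deposited lists hold no site under 10%.

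Separase and its inhibitor both fell. The separase gene, ESPL1, lies at chr12:53268299-53293638 on the plus strand, and its 14 tested sites form 8 within 884 nt and 6 within 655 nt further 3'. Summed over sites it went from 53.1% and 55.6% to 36.4% and 36.7% (log2 odds -1.05 ± 0.08 SE, adjusted p = 6.17e-10), and 8 sites fell. Securin, PTTG1, which holds separase inactive, went from 31.2% in both controls to 25.9% and 25.2%. This call is fragile (adjusted p = 0.0465): none of its 4 sites passed alone, the call was lost when any 1 of the 4 libraries was left out (log2 odds -0.42 to -0.38), and it was lost without the site at the annotated start (log2 odds -0.22) and under DESeq2 (adjusted p = 0.217).

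Of cohesin, the ring that holds sister chromatids together, and its loader, 2 of 6 genes fell. SMC1A, a core ATPase, went from 23.3% and 25.1% to 16.4% and 18.4% over 6 sites (adjusted p = 5.78e-05), with its deepest site chr X:53378314 at 25.1% and 26.9% and then 17.6% and 19.5%. SMC3, its partner ATPase, had 1 site, at 30.1% and 22.4% and then 15.9% and 14.5%, and lost its call without control replicate 1 (log2 odds -0.70). RAD21, the kleisin that separase cuts, was at 40.1% and 36.4% and then 35.5% and 33.3% over 3 sites of 143 to 279 summed reads (adjusted p = 0.303). For STAG1 and STAG2, the alternative HEAT repeat subunits, the groups overlapped: STAG1 was at 43.1% and 36.7% and then 34.2% and 37.0%, and STAG2 at 22.8% and 27.7% and then 25.9% and 28.0%. The cohesin loader NIPBL was at 54.6% and 64.5% and then 50.8% and 54.3% (adjusted p = 0.0926), and passed without control replicate 1 (log2 odds -0.70). One of its 6 sites, chr5:37064722, did fall, from 94.9% and 94.6% to 69.0% and 77.0% at 39 to 74 reads (adjusted p = 0.000361). Whether cohesin genes differ from the other roles was not tested, and their read depths differ.

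Of the 8 measured condensin genes 5 fell, and TOP2A, the topoisomerase that untangles sister chromatids, fell as well. SMC4, the ATPase shared by condensin I and II, went from 45.3% and 44.4% to 20.8% and 24.6% over 4 sites (log2 odds -1.45 ± 0.15 SE, adjusted p = 6.23e-08). Its partner SMC2 had 1 site of 64 to 99 reads, at 86.9% and 85.9% and then 73.0% and 66.7%. NCAPD2, of condensin I, went from 26.6% and 29.7% to 20.1% and 23.0%. NCAPG2 and NCAPH2, of condensin II, went from 32.4% and 33.8% to 13.3% and 19.3%, and from 44.8% and 45.4% to 39.3% and 38.0% over 18 sites. TOP2A had 5 sites, and its deepest, chr17:40389474, read 34.9% and 40.6% and then 26.7% and 27.9% (adjusted p = 1.20e-05). NCAPD3, NCAPG and NCAPH did not pass. They rested on 1 or 2 sites each and on 21 to 124 summed reads; NCAPH, at 23.8% and 33.3% and then 33.3% and 34.6%, had 21 to 26.

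Kinetochore genes had 3 measured members, and all 3 fell. CENPF, a large outer kinetochore protein with 23 sites, went from 45.3% and 46.6% to 40.6% and 40.8%, and lost its call when either ascorbic acid library was left out (log2 odds -0.31 and -0.31). CENPE, the plus-end directed kinesin that moves chromosomes to the spindle equator, went from 29.3% and 25.9% to 19.1% and 21.5%, a call lost without ascorbic acid replicate 1 (log2 odds -0.47) and under DESeq2 (adjusted p = 0.0571). KNL1, the scaffold on which the BUB proteins assemble, went from 33.0% and 36.2% to 26.5% and 26.2% over 11 sites. CENPC, NDC80 and NUF2 had no tested site. MKI67, the Ki-67 antigen that coats mitotic chromosomes, went from 46.9% and 48.1% to 41.1% and 40.9% (adjusted p = 9.88e-05), with 9 of 34 sites called.

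Of the 2 chromosomal passenger genes INCENP fell and BIRC5 did not pass. INCENP, the scaffold that activates Aurora B, went from 54.9% and 59.7% to 43.3% and 41.4% over 15 sites (log2 odds -0.87 ± 0.09 SE, adjusted p = 3.96e-08). BIRC5, survivin, also had 15 sites and held the most reads of the list, 10311 to 12186 per library, yet was at 24.9% and 26.4% and then 23.9% and 24.5% (log2 odds -0.11 ± 0.07 SE, adjusted p = 0.162). Its deepest site, chr17:78224431, with 2601 to 3424 reads, stood at 22.3%, 23.0%, 22.0% and 23.2% in the 4 libraries. The gene's change of -1.48 points stood beside an SD of 1.09 in the controls and 0.39 with ascorbic acid, and it passed without control replicate 1 (log2 odds -0.17). One of its sites, chr17:78224955, fell from 94.1% and 91.0% to 83.0% and 83.5% (adjusted p = 5.46e-05); it was picked out after its values were seen.

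Among the cyclins, CCNE1, CCNE2 and CCNA2 fell and CCNB2 and CCND1 did not pass. Cyclin E1, CCNE1, which drives entry into S phase, went from 60.5% and 56.0% to 39.2% and 43.6% over 3 sites within 447 nt near the gene end (log2 odds -0.99 ± 0.14 SE, adjusted p = 3.57e-06). Cyclin E2, CCNE2, was at 35.3% and 47.2% and then 28.7% and 31.2%, and its call was lost without control replicate 2 (log2 odds -0.33) or without ascorbic acid replicate 1 or 2 (-0.64 and -0.82), under DESeq2 (adjusted p = 0.169), and at a minimum of 50 reads (-0.29, adjusted p = 0.534). Cyclin A2, CCNA2, active in S phase and G2, had 1 site, at 28.4% and 23.4% and then 16.6% and 16.8%. Cyclin B2, CCNB2, had 1 site, at 12.5% and 17.6% and then 17.4% and 11.7%. Cyclin D1, CCND1, was at 49.5% and 57.5% and then 43.4% and 50.4%, with overlap and 99 to 133 reads. Cyclin B1, CCNB1, the main mitotic cyclin, could not be tested. Its sites chr5:69175052 and chr5:69175452 were listed in both controls, at 11.2% and 11.7% and at 13.9% and 15.6%, with 2510 to 3134 reads. Neither site was listed in either ascorbic acid library.

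CDK2 was the single cyclin-dependent kinase of 3 to fall, and it held both directions. The gene went from 34.8% and 36.3% to 28.8% and 28.1% over 4 sites (adjusted p = 1.39e-05). Its site chr12:55971707 fell from 82.5% and 81.3% to 54.2% and 55.8% (adjusted p = 1.76e-18). By contrast chr12:55968824 was the 1 site of the list that rose, from 10.4% and 13.1% to 19.5% and 15.3%, at 1776 to 2186 reads (+5.67 points, adjusted p = 0.000126). A neighbour 6 nt away, chr12:55968818, was listed in 3 libraries, at 12.9% in control replicate 2 and 18.7% and 14.2% with ascorbic acid. The rise did not pass without ascorbic acid replicate 1 (log2 odds 0.43). CDK1, the mitotic kinase, was at 18.1% and 17.6% and then 14.7% and 14.6% (adjusted p = 0.0768), and passed with limma on log2 odds (adjusted p = 0.0410). CDK6, a partner of the D cyclins, was at 36.8% and 41.5% and then 39.0% and 27.0%, and passed without ascorbic acid replicate 1 (log2 odds -0.82).

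The switch that sets CDK activity gave 1 fall in 4. WEE1, the kinase that inhibits CDK1 by phosphorylation, went from 47.3% and 46.4% to 41.1% and 36.6% (adjusted p = 0.00129), and the call was lost without ascorbic acid replicate 2 (log2 odds -0.34). The phosphatases that oppose it did not pass. CDC25A, at 5287 to 5837 summed reads, was at 41.1% and 42.5% and then 38.7% and 39.4% (adjusted p = 0.0573). Its deepest site, chr3:48158719, stood at 61.7%, 62.5%, 60.5% and 60.6%. The site with its highest control level, chr3:48158826, picked out after its values were seen, stood at 92.2%, 93.7%, 93.2% and 92.9%. CDC25B was at 39.3% and 35.1% and then 33.6% and 31.6% (adjusted p = 0.0537), and CDC25C at 16.8% and 21.2% and then 22.7% and 18.6% (adjusted p = 0.485). Without sites 6 nt from another, CDC25A and CDC25B passed as lower (adjusted p = 0.0456 and 0.0463 by edgeR). Without control replicate 1 CDC25A passed as lower (log2 odds -0.20); without control replicate 2 CDC25B passed as lower (-0.42) and CDC25C as higher (0.36). One CDC25C site, chr5:138285705, fell from 70.8% and 71.4% to 44.0% and 41.4%, at 42 to 65 reads (adjusted p = 0.000577, picked out after its values were seen); DESeq2 did not call it (adjusted p = 0.0635).

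Of the single sites, those with the largest falls lay in 7 genes (ESPL1, SMC4, ANAPC2, ANAPC7, ANAPC5, INCENP and CDC27), with at most 2 taken per gene. The largest was chr12:53270010 in ESPL1, at 82.8% and 79.0% and then 19.2% and 20.0%, with 428 to 533 reads (-61.3 points, adjusted p = 3.83e-23). In SMC4, chr3:160433800 went from 76.6% and 71.5% to 26.1% and 29.6%, and in ANAPC2 chr9:137187815 went from 88.7% and 91.4% to 42.9% and 45.2%. A pair of sites in ANAPC7 moved alike: chr12:110374054 went from 86.7% and 89.1% to 44.9% and 42.5%, and chr12:110374088 from 87.0% and 86.7% to 43.6% and 43.8%. ANAPC5 chr12:121308434, which is 189 nt from the gene end and was read 2239 to 2868 times, went from 64.0% and 65.4% to 22.7% and 20.2% (adjusted p = 4.65e-25). In INCENP chr11:62130423 went from 90.3% and 91.7% to 54.0% and 51.3%. The other 3 were ESPL1 chr12:53269358 (-37.1 points), CDC27 chr17:47120920 (-33.8 points) and ANAPC2 chr9:137187627 (-33.6 points), the last of which DESeq2 did not call (adjusted p = 0.0689). No libraries overlapped at any of these 10 sites, but they were picked as the largest falls that passed, so this adds no support. All coordinates are on hg38, and exon, intron and UTR positions were not assigned because no transcript models were at hand.

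The calls were then set beside the level of the site in the controls. Of sites between 10% and 30% in the controls 14.8% fell (17 of 115), of sites between 30% and 60% 26.0% fell (26 of 100), and of sites above 60% 70.8% fell (51 of 72). In the series as a whole the shares in the same ranges were 8.37%, 21.4% and 49.1%. The ranges were set on the control libraries, which also enter the change. A tested site had to be listed, at 10% or more, in every library. A site of low control level that fell under 10% with ascorbic acid was therefore not counted. How far this lowered the share in the lowest range was not tested. By distance to the annotated gene end, 32 of 83 sites within 1000 nt fell, 31 of 74 sites between 1000 and 5000 nt, and 31 of 120 sites further away (38.6%, 41.9% and 25.8%). The shares over the series were 29.2%, 22.7% and 32.2%, where 69698 sites, start sites included, were placed in a RefSeq gene. Start sites were left out of the counts by distance but not of those by level. The ranges of distance were chosen with the results known.

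**Figure D2:**
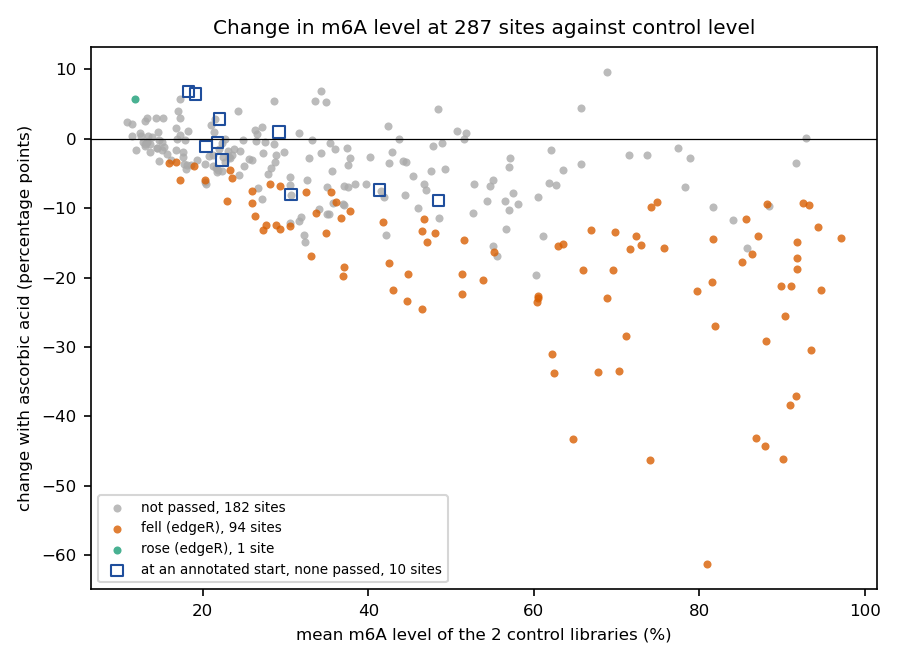
Change with ascorbic acid (percentage points, mean of 2 libraries minus mean of 2 control libraries) against the mean control m6A level (percent) at 287 sites; orange points fell, the green point rose and grey points did not pass by edgeR, and blue squares are the 10 sites at an annotated transcription start. Of the 72 sites above 60% on the x axis 51 fell, and the 10 squares lie between -8.89 and 6.78 points.

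Sites of the same transcript did not all change by the same amount. Each site was tested against its gene as a whole, that site included (edgeR's diffSpliceDGE, adjusted over all sites of genes with at least 2). The test called 57 of 276 sites in 20 of 39 genes, or 20.7% beside a background of 12.9%. Of the 276 sites, 31 departed downwards from their gene (background 10.1%). Another 26 departed upwards, by a smaller fall or by a rise (background 2.74%). Without ascorbic acid replicate 2 the count was 36. Sizes of departure are given in natural log odds, whereas all other changes in odds are in log2. In ESPL1 8 of 14 sites departed. Of these, chr12:53270010 fell more than the gene (-2.12 in natural log odds, adjusted p = 1.88e-30). The deepest site, chr12:53286176, was at 42.7% and 45.7% and then 40.9% and 41.3%. It fell less than the gene (0.60, adjusted p = 1.22e-07). INCENP chr11:62130423 fell more than its gene (-1.61, adjusted p = 1.48e-24), as did chr11:62130330, which went from 96.6% and 97.7% to 82.4% and 83.3%. Both CDK2 sites described above departed, in opposite directions.

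Neighbouring sites could differ too. In ANAPC5 the 2 tested sites are 40 nt apart, and chr12:121308434 fell by 43.3 points. The other, chr12:121308474, at 16.4% and 17.0% and then 13.6% and 13.0%, fell by 3.39 points. It departed from the gene (0.95 in natural log odds, diffSpliceDGE adjusted p = 1.68e-16). Its own fall was not called without ascorbic acid replicate 1 or 2 (log2 odds -0.42 and -0.35) or by DESeq2 (adjusted p = 0.0645). In CDC27, 21 nt separate chr17:47120920, which fell by 33.8 points, from chr17:47120899, which fell by 3.97 points (adjusted p = 0.0364, a call lost without control replicate 2 or either ascorbic acid library, at log2 odds of -0.29, -0.37 and -0.47, under DESeq2 at an adjusted p of 0.263, and with limma on log2 odds at an adjusted p of 0.0606). In SMC4, chr3:160433800 fell by 46.2 points and chr3:160433810, 10 nt away, fell by 13.6 points, a call lost without ascorbic acid replicate 1 (log2 odds -0.78) and under DESeq2 (adjusted p = 0.0903). Over all 63 pairs of neighbouring tested sites within 50 nt, in 26 genes, the median difference between the changes was 6.12 points, and 5 pairs differed by more than 20 points. The pairs were tabulated after the site values were seen, and the low starting level of the second site limits how far it could fall.

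**Figure D3:**
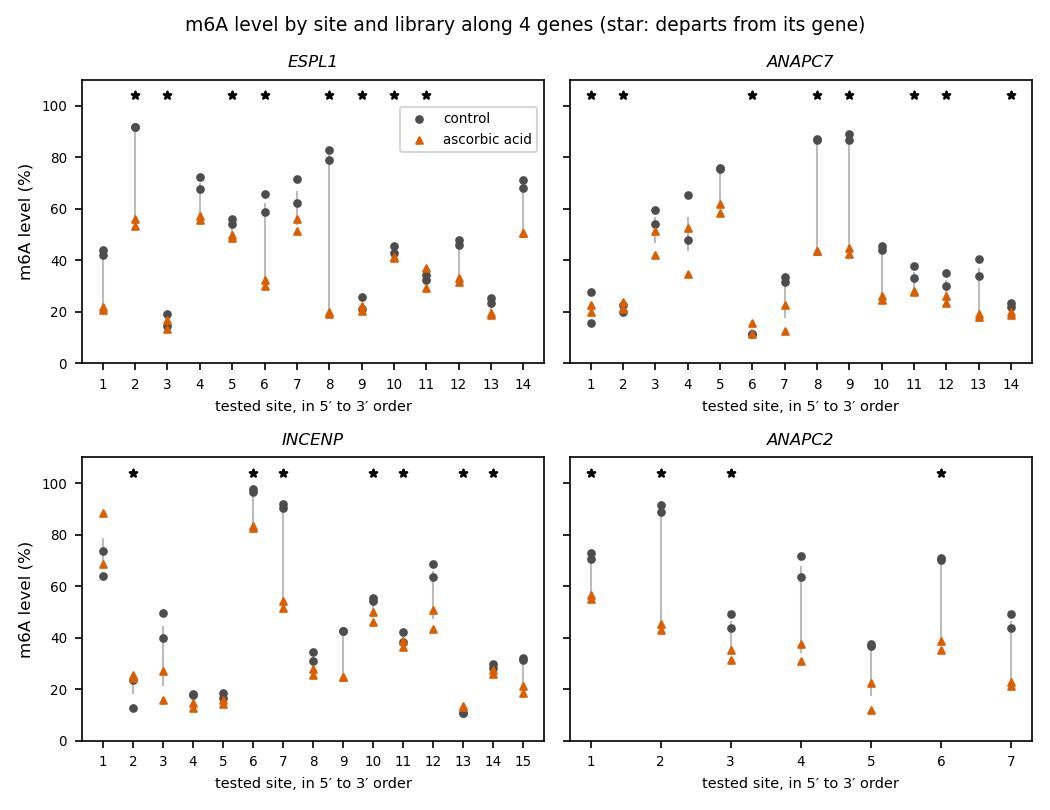
m6A level (percent) at each tested site of ESPL1, ANAPC7, INCENP and ANAPC2, in 5' to 3' order (not to scale), with 2 control libraries (circles) and 2 ascorbic acid libraries (triangles); stars mark sites whose change departed from that of their gene. The eighth ESPL1 site drops by 61.3 points, whereas its ninth to eleventh sites barely separate.

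Of the 287 sites, 10 lie exactly on a transcription start annotated by RefSeq, in ANAPC7, AURKB, BUB1, CDC25B, CDC25C, INCENP, PTTG1, RAD21, SMC1A and TOP2A. Those of CDC25B, CDC25C and SMC1A are starts inside the longest gene span. The first transcribed A of an mRNA often carries m6Am, which has a methyl group at the same N6 position and is also read as A, so the assay does not tell it apart from m6A at these places. This set was looked at after the results were known. The sequences below show 30 bases around the start of 8 of these sites, 5' to 3' on the transcribed strand, from RefSeq on GRCh38.p14; the capital letter is the first transcribed base, and it coincides with the listed site in all 8.
ANAPC7, chr12:110403689-110403718, minus strand: cgacgccgccAttttggagtcttccctaag
BUB1, chr2:110678044-110678073, minus strand: tgcgcggggtAttcgaatcggcggcggctt
CDC25B, chr20:3796300-3796329, plus strand: agctgcaactAgaggcttccctggctggtg
CDC25C, chr5:138331785-138331814, minus strand: ggctgttgatAttcttgctcagaggccgta
INCENP, chr11:62124001-62124030, plus strand: tttgaaaatcAtagttttcgcccgcgctgc
PTTG1, chr5:160421845-160421874, plus strand: gcgtccgttcAccgcggcctcagatgaatg
SMC1A, chrX:53422635-53422664, minus strand: gggctacctcAgttctcgggcgtacggcgc
TOP2A, chr17:40417877-40417906, minus strand: gagctctcctAaccgacgcgcgtctgtgga

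In 4 of the 8, those of ANAPC7, INCENP, PTTG1 and SMC1A, the base before the A is C, the CA pair of a common initiator. Over the series 722 listed start sites had a RefSeq entry, and 77.1% of them had C before the A, beside 66.6% of all 15605 RefSeq starts that begin with A.

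None of the 10 start sites passed the test in either direction, beside 34.3% of the other 277 sites on the list. Their control level was low, 18.2% to 48.5%, and their change ran from -8.89 to 6.78 points. INCENP read 12.8% and 23.7% and then 25.6% and 24.5%. TOP2A read 19.6% and 24.5% and then 20.5% and 29.3%. ANAPC7 read 15.8% and 27.8% and then 22.7% and 19.9%. Each of these 3 departed from its gene upwards, and the means of INCENP and TOP2A were higher with ascorbic acid. The departures were 0.91, 0.57 and 0.68 in natural log odds (diffSpliceDGE adjusted p = 0.00200, 0.00930 and 0.0343). Each lost this call without ascorbic acid replicate 2 (0.91, 0.32 and 0.75). ANAPC7 also lost it without control replicate 1 (0.45) or ascorbic acid replicate 1 (0.62), and reached 1.13 without control replicate 2. PTTG1 was the nearest to a fall, at 29.6% and 31.7% and then 22.8% and 22.5% (adjusted p = 0.0626). Both sites of AURKB lie at its start or 6 nt before it, so its uncalled gene value rests on them alone.

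Over the series, of 870 sites at an annotated start 6 fell and 5 rose (1.26% called, median change -0.0056 points), beside 26.1% called and a median of -4.95 points at the other 77639. Start sites had lower levels, so the comparison was repeated for control levels between 10% and 40%: 0 of 597 start sites fell and 4 rose, while 11.0% of 37828 other sites fell, as did 28 of 152 other sites on the list (18.4%). Median depth in these sets was 101.0 reads at start sites, 119.5 at other sites of the series and 159 at the other sites on the list.

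**Figure D4:**
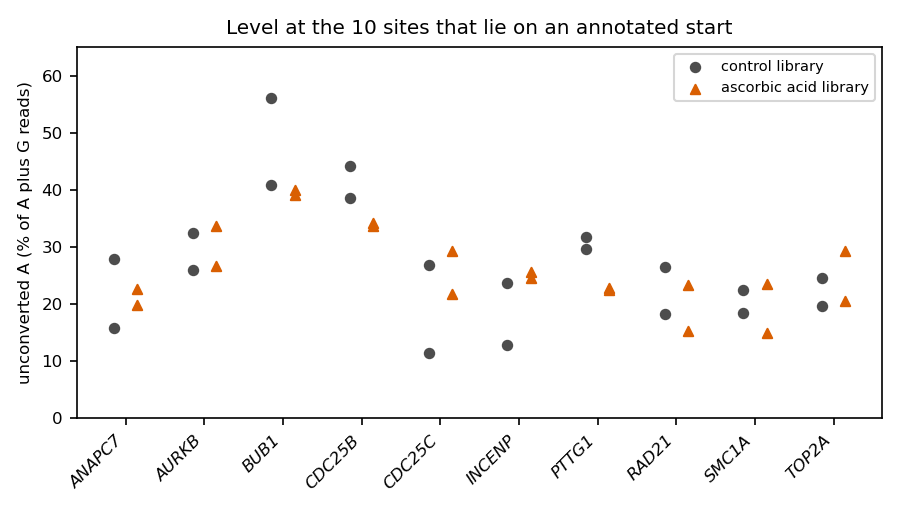
Unconverted A (percent of A plus G reads) at the 10 sites on an annotated start, with 2 control libraries (circles) and 2 ascorbic acid libraries (triangles) for each gene. Values stay between 11.5% and 56.0%, and the groups separate downwards for BUB1, CDC25B and PTTG1 and upwards for INCENP, none of which passed edgeR's test.

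The amount of RNA was followed through the deposited gene coverage, scaled between libraries by the median ratio. Of 53 genes with coverage in all 4 libraries 0 rose and 0 fell (limma, adjusted over 11848 genes; background 0.253% and 0.0422%). The changes ran from -0.22 to 0.21 in log2 with a median of 0.03, 36 of 53 lay within 0.1 of 0, and the lowest adjusted p was 0.225. At an unadjusted p under 0.05 there were 5 genes (9.43%, beside 14.4% of all genes). ANAPC2 was at 245 and 238 in the controls and 269 and 288 with ascorbic acid, and SMC4 at 140 and 127 and then 146 and 162. AURKB was at 723 and 734 and then 638 and 653, NCAPH at 307 and 268 and then 248 and 245, and CCND1 at 37.5 and 38.5 and then 33.3 and 33.4. In each of the 5 the groups did not overlap, but the 5 were picked by p-values from these same values, so this adds no support. Fewer cells in a phase and less RNA per cell cannot be told apart in these bulk libraries.

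Across the 50 genes the change in m6A and the change in coverage had Pearson's r = -0.50 and Spearman's rho = -0.42. Genes with deeper falls thus tended to have more positive changes in coverage. Over all 10782 genes r was -0.14 and rho -0.18. These are descriptions across genes; both measures come from the same 4 libraries, and genes are not independent replicates. Of the 32 genes that fell in m6A, 21 had coverage changes above 0 and 11 below.

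**Figure D5:**
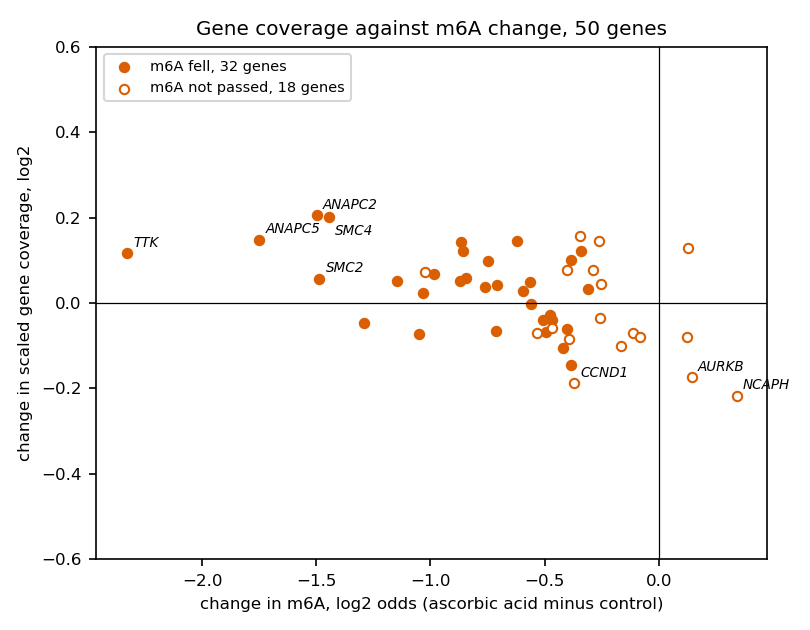
Change in scaled gene coverage (log2, ascorbic acid minus control) against change in m6A (log2 odds of A) for 50 genes, filled where m6A fell by edgeR. Coverage stays within -0.22 and 0.21 while m6A reaches -2.33 (TTK), and no coverage change passed limma's adjusted threshold.

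Genes with related roles outside the list were read from 6 further lists holding 131 genes, of which 113 could be tested: 76 fell and 1 rose (67.3% fell, beside the background of 56.7%). Fewer of them passed as lower without ascorbic acid replicate 2, as did fewer genes over the whole series. Regulators of cohesin gave 7 falls of 10, among them WAPL, which releases cohesin (47.4% and 47.9% to 36.6% and 35.7%), and CTCF, at whose sites cohesin stops (52.1% and 54.2% to 46.6% and 45.9%). Further subunits and partners of the anaphase-promoting complex gave 3 of 8, with its other activator FZR1 (54.7% and 58.0% to 47.2% and 47.9%) and its inhibitor FBXO5 (54.0% and 52.3% to 42.8% and 44.5%). Other checkpoint and kinetochore genes gave 20 of 27, with CENPI (55.6% and 55.5% to 39.4% and 40.5%) and CENPL (76.8% and 80.6% to 62.2% and 63.2%). Genes of mitotic entry, spindle assembly and exit gave 16 of 22, with NEK9 (52.2% and 47.9% to 38.0% and 38.1%) and CKAP5 (26.7% and 28.8% to 20.3% and 20.6%).

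CDK inhibitors, the RB family and E2F genes gave 18 of 29. CDK4, the partner of cyclin D that CDK6 resembles, had 1 site and went from 52.5% and 52.7% to 33.0% and 34.6% (adjusted p = 3.27e-10), and E2F4 went from 38.1% and 37.8% to 28.7% and 28.8%. Replication licensing gave 12 of 17, with GMNN (31.3% and 29.5% to 22.5% and 22.8%) and MCM5 (32.5% and 35.4% to 28.3% and 26.7%). CDC45, a part of the replicative helicase, was the 1 gene that rose, from 11.1% and 11.4% to 19.7% and 22.9% at a single site of 76 to 96 reads (adjusted p = 0.0244). Its call was lost without either control library or without ascorbic acid replicate 2 (log2 odds of 1.09, 1.12 and 0.95).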

How the data were processed

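mRNA, purified by the authors from total RNA of HEK293T cells, was processed by GLORI and sequenced. Per the submitters' processing notes, reads were trimmed with Trimmomatic 0.39 and aligned with STAR to hg38 (GRCh38); which program called the sites is not given in the sources here. Each deposited table lists sites with counts of A plus G reads and of A reads, a ratio given as a fraction, the gene's conversion rate as a fraction, p-values, and a gene coverage signal, per the file headers. The listed sites start at 15 A plus G reads, 5 A reads and a level of 10%. PCR duplicates cannot be assessed from these counts, so counts of reads may vary by more than counting error.

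A and G counts were fitted with edgeR 4.0.16 (quasi-likelihood, 1 term per library, no trend in the dispersion) for sites, for genes summed over sites, and with diffSpliceDGE for sites against their gene; log2 coverage was fitted with limma 3.58.1 (R 4.3.3). Benjamini-Hochberg adjustment ran over all features, at a threshold of 0.05. The main fits did not pair libraries by replicate number. Correlations of deviations between libraries of the same number were -0.0053 over sites and -0.16 over coverage. With so few libraries these values cannot show whether the libraries were handled in pairs. Alternatives were DESeq2 1.42.0, limma on log2 odds, other read minimums, leaving out sites 6 nt from another or at starts, other coverage scalings, a replicate block and each library left out.

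Every gene on the list could be named, with its deepest site, the 10 largest falls and the 10 smallest departure p-values (at most 2 per gene), all rises, and the 2 related genes per list with the smallest p. The members and lists were chosen with earlier results of these data known. Gene spans, starts and sequences are from RefSeq, GRCh38.p14; 46 of 57 genes had a promoter entry.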

Additional observations from a re-analysis of the deposited data

How the results depend on the processing

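DESeq2 lowered the sites that fell from 94 to 60, and the other settings gave 83 to 97 or, with 1 library left out, 70 to 83. The site rise was lost without sites 6 nt apart (0), and rises numbered 0 to 2 with 1 library left out. Genes that fell numbered 27 to 34 under all settings, and genes that rose 0, or 0 to 1 with 1 library left out; the 1, without control replicate 2, was CDC25C. Of the 32 genes that fell, 24 kept the call under every setting run, and AURKA, CCNE2, CENPE, CENPF, PLK4, PTTG1, SMC3 and WEE1 lost it under some. Departing sites numbered 45 to 56 beside the main 57, and 36 to 47 with 1 library left out. Related genes that fell numbered 75 to 78, and 49 to 78 with 1 library left out, with 0 to 1 rises. With the replicate number as a block 97 sites and 34 genes fell, with CDC23 and CDC25B among the latter, 52 sites departed, 78 related genes fell and 0 genes changed in coverage; the block ended the departure of CDC25C chr5:138285705 and of CDC27 chr17:47120899. A crossed pairing, added after seeing the data, gave 0 coverage calls on the list and 22 falls and 85 rises over all genes. Coverage gave 0 calls under each scaling, pseudocount and library left out; coverage minimums of 1 and 10 removed no gene.

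Signs turned only for values that had not passed. CDC25C moved to -0.12 in log2 odds without sites 6 nt apart, and STAG1 to 0.039 at a minimum of 50 reads. With 1 library left out, the log2 odds ran from -0.092 to 0.44 for AURKB, -0.42 to 0.25 for CCNB2, -0.056 to 0.36 for CDC25C, -0.77 to 0.20 for NCAPD3 and -0.052 to 0.33 for STAG2, and from -0.055 to 0.045 at BIRC5 chr17:78224431 and -0.15 to 0.19 at CDC25A chr3:48158826. The cause of these shifts was not tested. Genes with few reads, such as NCAPH at 21 to 26, limit what could be seen.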

Other observations

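Some sites of these genes were listed in 1 group only and so entered no test. Of 924 sites listed anywhere, 38 in 25 genes were listed in both controls and in neither ascorbic acid library (4.11%, beside 3.04% of all 218950 sites of the series), and 13 in 10 genes in both ascorbic acid libraries and in neither control (1.41%, beside 2.75%). ESPL1 held 4 of the former and INCENP 3, mostly at levels of 10.4% to 21.5%, close to the lowest level listed. NIPBL held 4 of the latter, and 3 of these lie within 51 nt, at chr5:36975968 (33.3% and 21.6%), chr5:36975990 (45.1% and 48.2%) and chr5:36976019 (58.6% and 42.5%), at 29 to 56 reads. A site that is not listed may have missed the read or level minimum, so no level is given for the other group.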
